A study of Arabidopsis thaliana with 6 samples.

Results

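Expression of 45 genes of cell wall loosening, 22 expansin genes and 23 genes of xyloglucan endotransglucosylase/hydrolases (XTH), was followed in Arabidopsis thaliana seedlings, out of 33323 genes listed. The genes were chosen by gene ID within these families, with earlier results of these data known. The expansins were EXPA1 to EXPA6, EXPA8 to EXPA17 and EXPA20 (alpha-expansins), EXPB1 and EXPB3 (beta-expansins), and EXLA1 to EXLA3 (expansin-like). The XTH genes were XTH4 to XTH9, XTH15 to XTH25, XTH27, XTH28 and XTH30 to XTH33. Left out of that choice were 14 further expansin genes, among them the root hair expansins EXPA7 and EXPA18, and 10 further XTH genes. They are described apart as other family genes, and counts and sums of the families cover the chosen genes only. Poly(A) RNA came from whole seedlings 5 days old, 3 libraries of the wild type (WT) and 3 of the mutant hid1 (hidden treasure 1), described as biological replicates. Both genotypes were grown in what the labels call cR, known from the study as continuous red light, and no other treatment is named. HID1 is a noncoding RNA, known for promoting photomorphogenesis in red light. The name table used here has no entry for HID1, so its own level was not analysed here, and the labels describe neither the hid1 allele nor its background.

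Growing plant cells enlarge when their walls yield to turgor. Expansins let cellulose and its coating polymers slip past each other without cutting them, and they work best in an acidic wall, which plasma membrane proton pumps provide. XTH enzymes cut xyloglucan, the chain that ties cellulose fibrils together, and join the cut end to another chain or to water. In seedlings, both families are known to be expressed in the elongating hypocotyl and root and to respond to light, auxin and brassinosteroid.

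Values are RPKM (reads corrected for gene length and for depth), as the authors deposited them, so levels of different genes are compared per length. The depth of the libraries, read from the smallest steps of RPKM times exon length, was about 17.9 to 26.2 M reads and overlapped between genotypes. Differences, always hid1 minus WT, are on a scale of log2(RPKM + 1), which understates the change of low genes, and SE is their standard error. A gene "rose" or "fell" where limma, run over all 18871 genes that averaged 1 RPKM or more in WT or in hid1, gave a Benjamini-Hochberg adjusted p of 0.05 or lower. In RNA from whole seedlings, fewer cells of a type and less RNA per cell cannot be told apart. Green tissue and root markers were both present in every library, and WT replicate 1 stood apart from the other WT libraries. The mean log2 level of 12 root and root hair markers was 4.23 in it, 3.41 and 3.43 in WT replicates 2 and 3, and 4.27, 4.04 and 4.06 in the hid1 libraries.

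Short coding stretches around a conserved motif of each family are shown here for the members on which the results turn. A script found the motif around the pair of catalytic glutamates in the coding sequence of 23 of 23 XTH genes. It found the triplet His-Phe-Asp, a conserved motif of expansins, in 15 of 17 EXPA genes, 2 of 2 EXPB genes and 0 of 3 EXLA genes. The stretches printed are coding strand, 5′ to 3′, read from the TAIR10.1 genome by the RefSeq annotation. Capitals mark the codons of the glutamates in the XTH genes, and the codons of His-Phe-Asp in the expansins.
XTH15: gacGAGatagactttGAGtttcta
XTH16: gacGAGatagactttGAGtttctt
XTH24: gatGAGattgattttGAGttcttg
XTH31: gatGAGgtcgatatcGAGtttcta
EXPB3: agcactCACTTTGACctcagtggt
EXPB1: cacactCATTTCGACctcagtggc
EXPA5: aaccacCATTTCGATctttctcag
EXPA17: agacctCATTTCGACatggctcag
These stretches lie in single exons, at chr4:8137785-8137808 (minus strand), chr3:8550598-8550621 (plus strand), chr4:14820045-14820068 (minus strand), chr3:16447885-16447908 (minus strand), chr4:14001469-14001492 (minus strand), chr2:8941677-8941700 (plus strand), chr3:11012318-11012341 (minus strand) and chr4:701135-701158 (plus strand). XTH15 with XTH16, and EXPB3 with EXPB1, are near relatives of which 1 passed the test and the other did not.

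Of the 45 genes, 42 were tested, and 11 of them rose in hid1, 5 fell and 26 did not pass. Among all tested genes 13.6% passed, 9.41% higher and 4.21% lower in hid1. Of the expansins 4 rose and 5 fell, with 11 not passing. Of the XTH genes 7 rose and 0 fell by limma, with 15 not passing, whereas at an unadjusted p under 0.05 the XTH genes stood at 9 higher and 3 lower (XTH7, XTH9 and XTH32). That count of 0 depended on the scaling of the libraries: 2 XTH genes passed as lower with quantile normalization, with median-ratio scaling and with a length trend removed, XTH9 and XTH32 in each. The split of calls over both families was then 9 higher against 8 lower, 8 against 8 and 9 against 7. Over all tested genes the split also moved, from 1775 higher and 794 lower to 1305 and 1343, 1333 and 1236, and 1429 and 1142. Whether the families differ in direction was not tested.

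The median difference of the 42 tested genes was 0.07, as over all tested genes, with 24 higher and 18 lower. It was -0.09 over the expansins and 0.26 over the XTH genes. Changes of more than 2-fold on the log2(RPKM + 1) scale were found for 4 members that rose and 1 that fell, where 2.51% of all tested genes rose and 0.901% fell by that much. The libraries of the genotypes did not overlap for 14 members with hid1 higher and 9 with hid1 lower. Among all tested genes 34.6% did not overlap, 23.1% with hid1 higher and 11.4% with hid1 lower. The members below the filter were EXPA12, EXLA3 and XTH25, whose highest genotype means were 0.323, 0.977 and 0.663 RPKM.

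**Figure D1:**
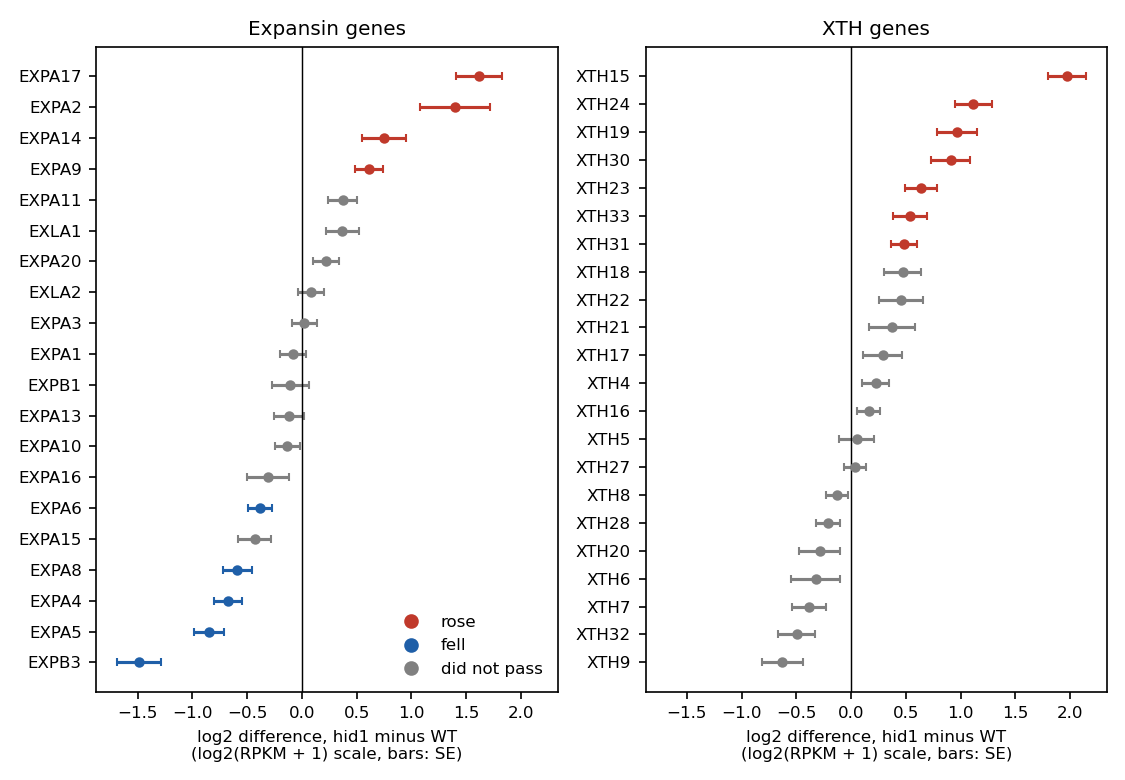
Log2(RPKM + 1) differences, hid1 minus WT, of the 42 tested genes (points; bars are SE), 20 expansins in the left panel and 22 XTH genes in the right one. Expansins spread from -1.49 to 1.62 with calls on both sides, and the 7 XTH genes that passed lie between 0.48 and 1.97.

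The expansins that fell were EXPB3 and the alpha-expansins EXPA5, EXPA4, EXPA8 and EXPA6. EXPB3 (AT4G28250, chr4:13999625-14002124) encodes a beta-expansin, a branch best known from grass pollen allergens. It was at 67.5, 50.8 and 47.9 RPKM in WT replicates 1 to 3 and at 21.6, 13.4 and 23.3 in hid1 replicates 1 to 3, so the lowest WT library was above the highest hid1 library. The difference was -1.49 (SE 0.20, limma adjusted p = 0.000920). EXPA5 (AT3G29030, chr3:11011262-11013451), an expansin tied to hypocotyl growth and brassinosteroid, was at 52.5, 46.0 and 46.1 RPKM in WT and at 31.6, 21.7 and 26.3 in hid1. The genotypes did not overlap and the difference was -0.85 (SE 0.14, adjusted p = 0.00312). For EXPA4 (AT2G39700, chr2:16543832-16545746) the WT libraries stood at 41.3, 30.5 and 35.7 RPKM, while the hid1 libraries were almost equal to each other at 22.0, 21.8 and 21.9 (-0.68, SE 0.13, adjusted p = 0.00592). The calls on these 3 genes were kept in all 13 other settings.

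EXPA8 (AT2G40610, chr2:16948791-16950705), among the most abundant expansins, was at 154, 137 and 173 RPKM in WT and at 119, 96.6 and 92.9 in hid1 (-0.59, SE 0.13, limma adjusted p = 0.0151). The libraries were apart by a smaller margin than for EXPB3, and the call was lost without WT replicate 3, hid1 replicate 2 or hid1 replicate 3 (adjusted p = 0.0619, 0.0646 and 0.0673). EXPA6 (AT2G28950, chr2:12431338-12433796) had the smallest passing decrease, from 82.7, 97.2 and 90.5 RPKM to 63.6, 73.0 and 70.0 (-0.38, SE 0.11, adjusted p = 0.0413). Its call was lost without WT replicate 2 (adjusted p = 0.143), WT replicate 3 (0.119), hid1 replicate 1 (0.129), hid1 replicate 2 (0.0697) or hid1 replicate 3 (0.0884), and without a filter on low values (0.0536). The 5 expansins that fell had WT means of 35.8 to 155 RPKM and hid1 means of 19.4 to 102.9 RPKM.

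The expansins that rose were EXPA17, EXPA2, EXPA14 and EXPA9, whose WT means lay lower, between 1.89 and 17.3 RPKM. Their hid1 means, 6.95 to 26.9 RPKM, overlapped those of the expansins that fell. EXPA17 (AT4G01630, chr4:700566-701769), an auxin-induced expansin of lateral root emergence, was at 1.98, 2.50 and 1.19 RPKM in WT and at 8.36, 9.28 and 5.90 in hid1. Every hid1 library was above every WT library, and the difference was 1.62 (SE 0.21, limma adjusted p = 0.000744) and passed in all 13 other settings. EXPA2 (AT5G05290, chr5:1568694-1569915), an expansin of germinating seeds, was at 8.89, 2.94 and 9.39 RPKM in WT and at 18.7, 14.6 and 23.1 in hid1 (1.40, SE 0.32, adjusted p = 0.0175). The WT libraries differed among themselves, with replicate 2 lowest, and without that library the difference was 0.94 (adjusted p = 0.0101). The call was lost without hid1 replicate 3 (adjusted p = 0.0917) and without a filter on low values (0.0846).

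EXPA9 (AT5G02260, chr5:463073-465273) was at 18.6, 14.5 and 18.8 RPKM in WT and at 27.4, 28.3 and 24.9 in hid1 (0.62, SE 0.13, limma adjusted p = 0.0113). The genotypes were clearly apart, and the call was lost in 1 setting, without hid1 replicate 2 (adjusted p = 0.0501). EXPA14 (AT5G56320, chr5:22808641-22810747), which like EXPA17 has been studied in lateral roots, was at 5.76, 3.02 and 2.88 RPKM in WT and at 6.74, 6.99 and 7.11 in hid1 (0.75, SE 0.20, adjusted p = 0.0348). WT replicate 1, the library with the higher root markers, was the nearest to hid1, and without it the difference was 1.01 (adjusted p = 0.000612). The call was lost without WT replicate 2 (adjusted p = 0.116), WT replicate 3 (0.118), hid1 replicate 1 (0.0777), hid1 replicate 2 (0.0971) or hid1 replicate 3 (0.109). It was also lost without a filter and under the 3 other scalings (0.0609 to 0.107). The part of the root markers in the increases of these expansins was not tested.

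**Figure D2:**
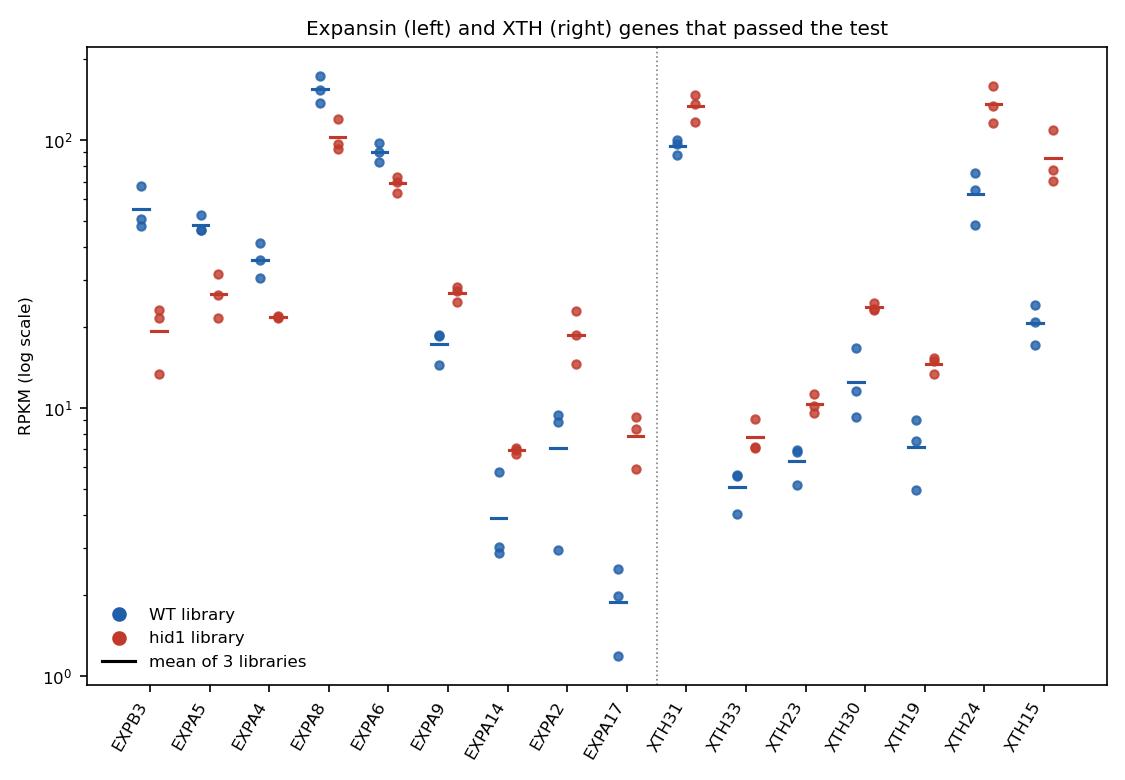
RPKM (log axis) in each of the 3 WT and 3 hid1 libraries for the 16 genes that passed, with the genotype means as bars; 9 expansins stand left of the dotted line and 7 XTH genes right of it, each ordered by difference. WT and hid1 points do not overlap for any of the 16 genes, and those of XTH15, EXPA17 and EXPB3 lie farthest apart. The 16 were picked by a test on these same values, and 34.6% of all tested genes do not overlap.

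The remaining tested expansins, 11 in all, had differences from -0.43 to 0.37 and adjusted p from 0.0781 to 0.917, with 5 higher, 6 lower and 3 not overlapping. They included the most abundant expansins. EXPA1, known from guard cells and leaf growth, was at 246.9 ± 15.8 RPKM in WT and 234.3 ± 31.0 in hid1 (SD, n = 3; limma adjusted p = 0.698). EXPA3 was at 160.6 ± 14.7 and 162.9 ± 12.8 (adjusted p = 0.917), and EXPA11 at 41.9 ± 7.04 and 54.2 ± 3.97 (adjusted p = 0.0885). None of the tested EXLA genes passed: EXLA1 and EXLA2 differed by 0.37 and 0.08 (adjusted p = 0.133 and 0.690), with EXLA1 at an unadjusted p under 0.05. EXPA15, with libraries that did not overlap, was lower by a difference of -0.43 (adjusted p = 0.0781) and passed with quantile normalization and median-ratio scaling (0.0345 and 0.0392). The others, EXPA10, EXPA13, EXPA16, EXPA20 and EXPB1, had WT means from 7.46 to 31.0 RPKM. Summed over the 22 expansins, the level was 928 to 1020 RPKM in WT libraries and 845 to 871 in hid1 libraries. EXPB3 made up 5.68% of that sum in WT and 2.27% in hid1, EXPA8 15.8% and 11.99%, and EXPA1 25.3% and 27.4% (means of 3 libraries).

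Among the XTH genes, XTH15 and XTH24 rose most. XTH15 (AT4G14130, chr4:8137020-8138392), an XTH known from the shade response and formerly named XTR7, was at 24.3, 17.3 and 20.9 RPKM in WT and at 77.2, 109 and 70.0 in hid1. The lowest hid1 library lay far above the highest WT library, and the difference was 1.97 (SE 0.17, limma adjusted p = 8.90e-05). The gene overlaps AT4G14120 on the opposite strand over 382 bases, whose level was at most 1.4 RPKM in any library. XTH24 (AT4G30270, chr4:14819192-14820595), first described as the meristem gene MERI5, was at 75.3, 48.2 and 65.3 RPKM in WT and at 134, 116 and 160 in hid1 (1.12, SE 0.17, adjusted p = 0.00191). XTH19 (AT4G30290, chr4:14828712-14830224), an auxin-responsive XTH, was at 7.53, 9.0 and 4.93 RPKM in WT and at 13.4, 15.4 and 15.0 in hid1 (0.97, SE 0.18, adjusted p = 0.00626). For XTH30 (AT1G32170, chr1:11575320-11578030) the values were 16.7, 9.26 and 11.6 RPKM in WT against 24.7, 23.2 and 23.5 in hid1 (0.91, SE 0.18, adjusted p = 0.00766), with the hid1 libraries close together and WT replicate 1 the highest of the WT. These 4 calls held in all 13 other settings.

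The other three XTH genes that rose changed less. XTH31 (AT3G44990, chr3:16446935-16448844), which has hydrolase activity and is known from the response of roots to aluminium, was at 87.8, 96.8 and 100 RPKM in WT and at 117, 147 and 136 in hid1 (0.48, SE 0.12, limma adjusted p = 0.0221). Its call was lost without WT replicate 2 (adjusted p = 0.0544), hid1 replicate 2 (0.0841) or hid1 replicate 3 (0.0743) and with median-ratio scaling (0.0536). XTH23 (AT4G25810, chr4:13128394-13129927), formerly XTR6, stood at 6.99, 5.14 and 6.84 RPKM in WT and at 9.61, 10.2 and 11.2 in hid1 (0.64, SE 0.14, adjusted p = 0.0157). The hid1 libraries were all higher, and the call was lost without WT replicate 2 (adjusted p = 0.0630) or hid1 replicate 3 (0.0618). XTH33 (AT1G10550, chr1:3479066-3481041), an XTH with a membrane anchor, was at 5.57, 4.02 and 5.61 RPKM in WT and at 7.17, 9.07 and 7.10 in hid1 (0.54, SE 0.16, adjusted p = 0.0487). It was nearest to the threshold, and its call was lost without WT replicate 2 (adjusted p = 0.172), WT replicate 3 (0.0771), hid1 replicate 1 (0.0844), hid1 replicate 2 (0.145) or hid1 replicate 3 (0.0839). It was also lost without a filter (0.109) and under the 3 other scalings (0.0682 to 0.109).

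The 15 XTH genes that did not pass had differences from -0.63 to 0.47 and adjusted p from 0.0504 to 0.868, with 8 higher and 7 lower. The most abundant member of either family was among them: XTH4, known from secondary growth, was at 565.8 ± 61.7 RPKM in WT and 660.1 ± 56.8 in hid1 (SD, n = 3; 0.22, limma adjusted p = 0.255). XTH7 was at 445.2 ± 72.0 and 340.0 ± 48.5 (-0.38, adjusted p = 0.118). XTH9, which acts in secondary growth with XTH4, was at 48.7, 72.5 and 65.7 RPKM in WT and at 31.6, 37.7 and 51.3 in hid1. WT replicate 1 lay below hid1 replicate 3 for this gene, and the difference of -0.63 missed the threshold narrowly (adjusted p = 0.0504). Among other scalings and omissions of a library, it passed under the 3 scalings, without WT replicate 1 and without hid1 replicate 3 (0.00723 to 0.0360). The other abundant members were XTH27 of leaf vessels (88.7 ± 3.77 and 91.0 ± 5.49), XTH8 (72.1 ± 3.32 and 65.8 ± 2.07), XTH6 (69.5 ± 17.6 and 55.8 ± 16.02) and XTH28 of stamen filaments (54.0 ± 3.72 and 46.6 ± 4.14). Their adjusted p by limma was 0.843, 0.407, 0.363 and 0.229. The rest, XTH5, XTH16, XTH17, XTH18, XTH20, XTH21, XTH22 and XTH32, had WT means from 0.687 to 30.0 RPKM, and XTH21 passed the filter only through its hid1 mean of 1.17 RPKM. Among these, XTH32 was lower in hid1 by a difference of -0.50 (limma adjusted p = 0.0790), with libraries that did not overlap. It passed under the 3 other scalings, with the replicate block and without WT replicate 3.

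Summed over the 23 XTH genes, the level was 1579 to 1783 RPKM in WT and 1735.3 to 1985 in hid1, so the sums overlapped. XTH4 made up 33.5% of the sum in WT and 35.8% in hid1, and XTH7 26.3% and 18.4%. XTH24 took 3.76% and 7.36% and XTH15 1.24% and 4.68% (means of 3 libraries). XTH15 rose from a mean of 20.8 to 85.3 RPKM, a ratio of 4.10, and remained a small part of the family sum.

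**Figure D3:**
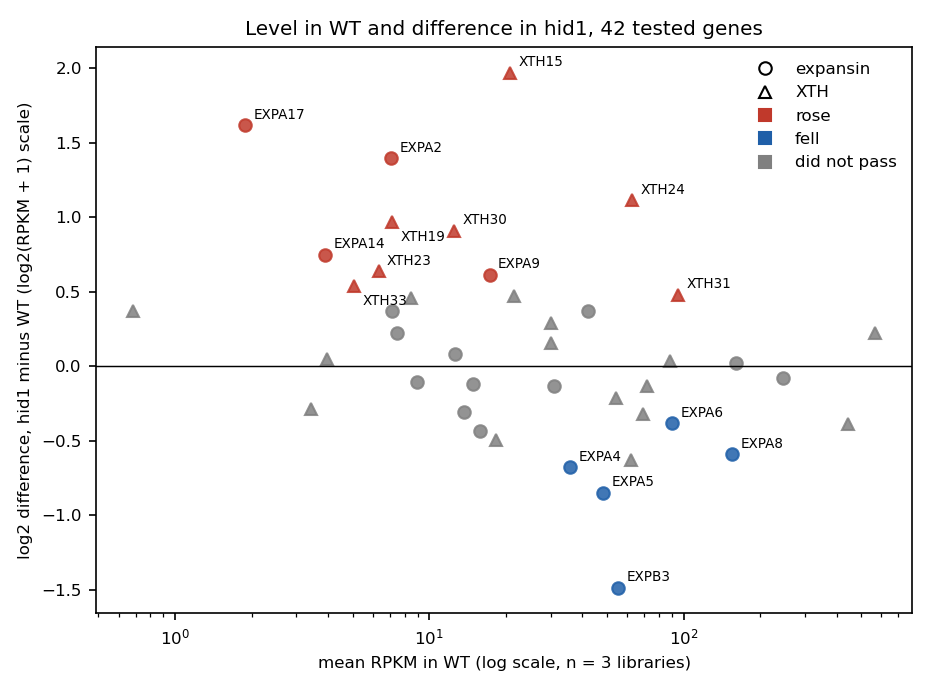
Mean RPKM in WT (log axis, n = 3 libraries) against the difference, hid1 minus WT, for the 42 tested genes; circles are expansins and triangles XTH genes, in color where they passed. The 5 expansins that fell have WT means of 35.8 to 155 RPKM and the 4 that rose 1.89 to 17.3, whereas the XTH genes that rose span 5.07 to 95.0. In hid1 the means of these expansins overlap, at 19.4 to 102.9 RPKM for the 5 and 6.95 to 26.9 for the 4. The WT level also enters the difference, so the axes are not independent.

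Near relatives within a family can share short runs of sequence, so the ratio of each tested pair was also taken within each library, where depth cancels. In all, 23 pairs were taken of a gene and its nearest relative among the members, with at least 65% identical coding bases. Family genes outside the members were not candidates. The pairs were compared by a two-sided exact permutation test. With 3 libraries against 3 the smallest p this test can give is 0.1, which 9 pairs reached, and the smallest Benjamini-Hochberg adjusted value was 0.256, so no pair could pass. The ratios come from the same libraries as the calls, so a shift in a pair with a called gene is no separate support for that call. How often ratios of other gene pairs do not overlap was not computed. XTH15 and XTH16 share 81.7% of coding bases, with a longest common run of 26 bases. The RPKM of XTH15 over that of XTH16 was 0.813, 0.539 and 0.746 in WT and 2.20, 3.36 and 2.11 in hid1, a shift of 1.86 on the log2 scale (exact permutation p = 0.1). The order of the pair was reversed between genotypes: XTH16 was the higher gene in each WT library and XTH15 in each hid1 library. XTH16 itself was at 29.9, 32.0 and 28.1 RPKM in WT and at 35.1, 32.4 and 33.2 in hid1 (0.16, limma adjusted p = 0.345).

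EXPB3 and EXPB1 share 78.4% of coding bases. EXPB3 over EXPB1 was 6.39, 6.28 and 5.84 in WT and 2.16, 1.57 and 3.62 in hid1 (log2 shift -1.42, exact permutation p = 0.1). EXPB3 was the higher of the pair in every library, by a smaller factor in hid1. EXPA9 over EXPA3 (76.7% identical) was 0.114, 0.10 and 0.108 in WT and 0.154, 0.179 and 0.163 in hid1, and XTH31 over XTH32 (67.2% identical) was 4.44, 4.57 and 7.22 against 8.50, 14.2 and 9.99, both without overlap (exact permutation p = 0.1). The ratios of EXPA5 to EXPA10, EXPA17 to EXPA11, EXPA14 to EXPA1, EXPA2 to EXPA8 and XTH20 to XTH17 did not overlap either, with hid1 lower for EXPA5 and XTH20 and higher for the others. For the rest of the 23 pairs the ratios overlapped. In the pair of XTH31 and XTH32, XTH32 was itself lower in hid1 (-0.50, limma adjusted p = 0.0790). XTH19 and XTH18 are 89.2% identical with a common run of 68 bases, and their ratio was 0.267, 0.506 and 0.266 in WT and 0.444, 0.582 and 0.467 in hid1 (exact permutation p = 0.3). How the authors' counting divided reads between such copies was not stated, so the values of XTH17, XTH18 and XTH19 are uncertain where reads are shared. The same holds for XTH20, 85.75% identical to XTH17 with a common run of 44 bases. It also holds for EXLA1 and EXLA3, 86.62% identical with a common run of 57 bases. Identity was computed among members only, so other family genes, XTH12, XTH13 and XTH14 among them, were not checked for shared runs.

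**Figure D4:**
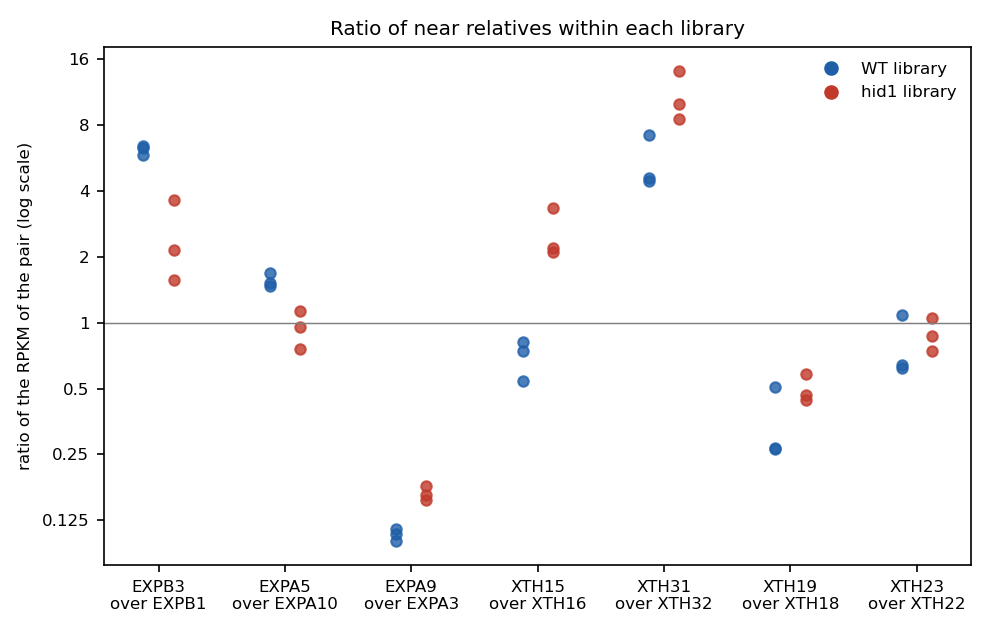
Ratio of the RPKM of a gene to that of a near relative (log axis) in each WT and hid1 library for 7 pairs. The ratio of XTH15 to XTH16 lies between 0.539 and 0.813 in WT and between 2.11 and 3.36 in hid1, on either side of the line at 1, while the points of XTH23 over XTH22 and XTH19 over XTH18 overlap.

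The sequences upstream of the genes with the largest changes were read to show what lies before them and were searched, on both strands, for motifs known to be bound by light and brassinosteroid factors. The motifs were CACGTG (the G-box), CACATG (the PBE-box, bound by PIF factors), and CGTGCG and CGTGTG (forms of the brassinosteroid response element). A gene was counted once for a motif however many matches it had. The 300 bases before the annotated start are given 5′ to 3′ on the strand of each gene, with matches in capitals, for the pair of largest decreases (EXPB3, EXPA5) and of largest increases (EXPA17, XTH15).
EXPB3: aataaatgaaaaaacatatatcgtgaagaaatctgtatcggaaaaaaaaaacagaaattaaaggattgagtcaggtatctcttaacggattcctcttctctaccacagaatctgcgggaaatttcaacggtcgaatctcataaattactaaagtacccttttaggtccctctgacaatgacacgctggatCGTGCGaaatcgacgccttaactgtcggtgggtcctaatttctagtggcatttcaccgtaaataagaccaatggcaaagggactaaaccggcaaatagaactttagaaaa
EXPA5: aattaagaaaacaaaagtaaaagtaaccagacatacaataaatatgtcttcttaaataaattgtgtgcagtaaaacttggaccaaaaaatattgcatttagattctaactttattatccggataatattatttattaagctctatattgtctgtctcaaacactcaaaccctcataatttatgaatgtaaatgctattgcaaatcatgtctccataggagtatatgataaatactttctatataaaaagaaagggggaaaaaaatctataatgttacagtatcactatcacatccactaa
EXPA17: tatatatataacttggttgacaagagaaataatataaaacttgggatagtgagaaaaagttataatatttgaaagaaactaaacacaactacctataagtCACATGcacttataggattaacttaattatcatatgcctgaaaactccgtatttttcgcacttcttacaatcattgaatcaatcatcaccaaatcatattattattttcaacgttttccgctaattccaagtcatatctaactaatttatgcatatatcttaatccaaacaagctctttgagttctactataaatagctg
XTH15: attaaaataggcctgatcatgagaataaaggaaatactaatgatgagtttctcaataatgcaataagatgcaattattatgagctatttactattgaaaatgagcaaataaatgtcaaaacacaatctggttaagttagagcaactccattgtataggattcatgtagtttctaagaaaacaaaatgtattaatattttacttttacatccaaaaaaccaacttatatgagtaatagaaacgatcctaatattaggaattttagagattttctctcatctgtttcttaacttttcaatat
These windows are chr4:14002125-14002424 (minus strand), chr3:11013452-11013751 (minus strand), chr4:700266-700565 (plus strand) and chr4:8138393-8138692 (minus strand) of TAIR10.1. EXPB3 has 1 match to CGTGCG, EXPA17 has 1 match to CACATG, and the windows of EXPA5 and XTH15 hold none of the 4 motifs.

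Of the 11 members that rose, 3 had CACATG in the 300-base window (EXPA2, EXPA17 and XTH33), 1 had CACGTG (EXPA2), 2 had CGTGTG (EXPA2 and XTH23) and 0 had CGTGCG. Of the 5 that fell, 0 had CACATG or CACGTG, 1 had CGTGCG (EXPB3) and 1 had CGTGTG (EXPA6). Among 18225 tested protein-coding genes, windows of the same length held CACATG in 13.1%, CACGTG in 8.0%, CGTGTG in 6.2% and CGTGCG in 1.9%. Of the 26 members that did not pass, 6 had CACATG and 3 had CGTGTG, so matches were not confined to members that changed. In windows of 1000 bases, CACATG stood before 5 of the 11 that rose, 2 of the 5 that fell and 17 of the 26 that did not pass, against 38.2% of all tested protein-coding genes. A match is a description of the letters and not of a bound site.

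Genes that act with expansins and XTH enzymes were followed from lists of related genes. The counts in these short lists stand beside 9.41% higher and 4.21% lower in hid1 among all tested genes. Of 11 plasma membrane proton pump genes 7 were tested, 2 rose and 0 fell by limma, but HA11 passed as lower under the 3 other scalings (-0.34 to -0.33, adjusted p = 0.0340 to 0.0444). On the deposited scale, HA11 (-0.25) and HA7 (0.48) had an unadjusted p under 0.05 (0.0396 and 0.0430), and HA7 passed as higher without WT replicate 1 (0.71, adjusted p = 0.0181). The pair that rose were the main pumps. AHA1 (HA1 in the annotation, AT2G18960) was at 178, 169 and 170 RPKM in WT and at 231, 233 and 272 in hid1 (0.50, SE 0.11, adjusted p = 0.0123). AHA2 (HA2, AT4G30190) was at 192, 169 and 169 RPKM in WT and at 252, 268 and 314 in hid1 (0.65, SE 0.12, adjusted p = 0.00532). Neither gene's libraries overlapped, and both calls held in all 13 other settings.

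Of 10 genes that build or trim xyloglucan, the substrate of XTH enzymes, 2 rose, 1 fell and 7 did not pass. The shares over all tested genes were 9.41% higher and 4.21% lower. XLT2 (GT18 in the annotation, AT5G62220), which adds galactose to xyloglucan side chains, fell from 30.8, 32.6 and 28.8 RPKM in WT to 20.0, 13.9 and 18.7 in hid1 (-0.79, SE 0.14, limma adjusted p = 0.00500), a call that held in all other settings. BGAL10, the galactosidase that removes such galactose, rose from 15.9, 19.1 and 20.3 RPKM to 26.2, 25.1 and 33.7 (0.59, SE 0.14, adjusted p = 0.0217). The fucosidase AXY8 (FUC95A, AT4G34260) rose from 22.9, 21.0 and 20.9 RPKM to 30.5, 26.3 and 32.1 (0.44, SE 0.12, adjusted p = 0.0310). The libraries of these 3 genes did not overlap between genotypes. The call on BGAL10 was lost without hid1 replicate 3 and without a filter (adjusted p up to 0.0764). That on AXY8 was lost with quantile normalization and without WT replicate 2, WT replicate 3, hid1 replicate 1 or hid1 replicate 3 (up to 0.106).

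Most other expansin genes were hardly expressed, and the other XTH genes were at low to moderate levels. Of 14 further expansin genes, among them EXPA7 and EXPA18, 11 stayed below 1 RPKM in all libraries and 9 were listed at 0 in all of them. Of the 3 tested, EXLB1, an expansin-like gene, fell from 14.1, 13.8 and 17.3 RPKM to 9.16, 5.07 and 7.25 (-1.0, SE 0.18, limma adjusted p = 0.00584), and this held in all other settings. EXPA7 of root hairs rose from 7.13, 2.35 and 3.02 RPKM to 14.7, 10.2 and 8.98 (1.34, SE 0.29, adjusted p = 0.0147), a call lost without hid1 replicate 1, without hid1 replicate 2 and without a filter (up to 0.0739). EXPA18, the other root hair expansin, was at 14.7, 3.48 and 3.76 RPKM in WT and at 19.1, 12.5 and 15.2 in hid1, with WT replicate 1 above hid1 replicate 2 (1.24, SE 0.39, adjusted p = 0.0618), and it passed without WT replicate 1 (1.83, adjusted p = 2.07e-05). Of 10 further XTH genes 4 stayed below 1 RPKM in all libraries, 5 were tested and 2 rose. XTH12 went from 6.61, 2.85 and 3.26 RPKM to 12.1, 7.29 and 10.9 (1.12, SE 0.26, adjusted p = 0.0169), and XTH14 from 34.8, 9.69 and 11.8 to 56.9, 31.8 and 37.4 (1.3, SE 0.38, adjusted p = 0.0466). In EXPA7, XTH12 and XTH14, all expressed in roots, WT replicate 1 was the highest WT library, and for XTH14 it overlapped hid1. XTH12 lost its call in 5 settings and XTH14 in 9, among them the omission of WT replicate 2, of WT replicate 3, of hid1 replicate 1 or of hid1 replicate 3 for both and of hid1 replicate 2 for XTH14 (adjusted p up to 0.0799 and 0.152).

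**Figure D5:**
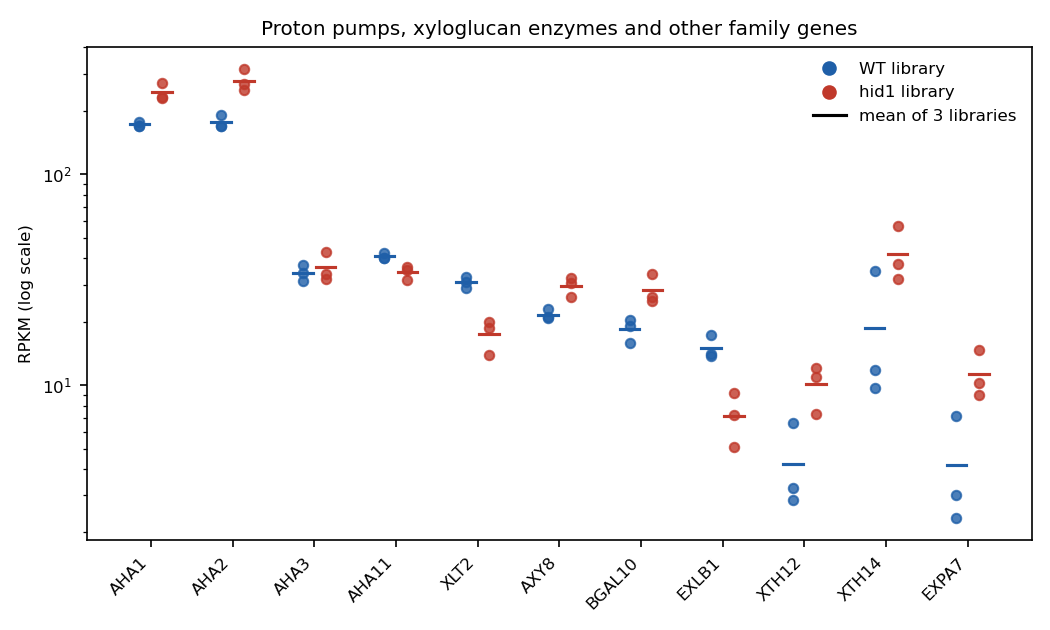
RPKM (log axis) in each WT and hid1 library, with genotype means as bars, for 4 proton pump genes, 3 xyloglucan enzymes and 4 other expansin and XTH genes. AHA1 and AHA2 are the most abundant, at 169 to 192 RPKM in WT and 231 to 314 in hid1, while XLT2 and EXLB1 lie lower in hid1.

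Root and green tissue markers were followed in the same libraries and did not move together. WT replicate 1 stood apart from the other WT libraries in root markers but not in green tissue markers. The mean log2 level of the green tissue markers was 11.57, 11.57 and 11.49 in WT replicates 1 to 3. It was 11.28, 11.23 and 11.05 in hid1 replicates 1 to 3. Of 12 root and root hair markers, 3 rose (SCR, EXPA7 and PRP3), 1 fell (IRT1) and 8 did not pass, and none was at 0. Among all tested genes 9.41% rose and 4.21% fell. The count of 3 was 7 without WT replicate 1, 1 without WT replicate 2, WT replicate 3, hid1 replicate 2 or hid1 replicate 3, and 0 without hid1 replicate 1. It was 1 under each of the 3 other scalings and 0 without a filter. The summed level of the 12 was 1083 to 1381 RPKM in WT and 1393 to 1441 in hid1, most of it from PYK10, which did not pass (adjusted p = 0.468). Without PYK10 the sum was 221, 112.5 and 119 RPKM in WT replicates 1 to 3 and 264.7, 177 and 194 in the hid1 libraries. Of 8 green tissue markers 0 rose and 3 fell by limma (LHCB2.3, PSAD-1 and PSBO2), none being higher even at an unadjusted p under 0.05, with sums of 63195 to 63820 RPKM in WT and 54172 to 67140 in hid1. Without WT replicate 1, the library nearest to hid1 in root markers, 19 members passed in place of 16, all 16 among them, together with XTH18 (0.67, adjusted p = 0.00371), XTH7 (-0.53, adjusted p = 0.0271) and XTH9 (-0.79, adjusted p = 0.00723). Over all tested genes 2289 were higher and 971 lower without that library, in place of 1775 and 794. The part of the root and green tissue markers in the differences of expansins and XTH genes was not tested.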

How the data were processed

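The authors deposited RPKM per gene and library, per the file headers. Reads were mapped to TAIR10 with TopHat2 2.0.9 and compared with Cuffdiff 2.0.0, per the submitters' processing notes. The counter, annotation, RPKM denominator, strand use and treatment of shared reads (each not given in the sources used here) bear most on gene families. Of 33323 IDs, 32835 matched RefSeq's TAIR10.1 annotation, which gave names, positions and sequences. The tables hold no coordinates. Values were tested as log2(RPKM + 1) with limma 3.58.1 (R 4.3.3; lmFit, eBayes with trend, genotype as the term). P-values measure the spread between these samples, and depth was estimated. The members and lists were chosen with earlier results of these data known. All called members and related genes are named, with up to 10 abundant uncalled members. XTH16, XTH18, XTH32, EXPB1 and the other genes named besides were chosen after their values were seen. Alternatives were pseudocounts of 0.1 and 5, no filter, quantile and median-ratio scaling, a length trend removed, a replicate block and each library left out. Pair ratios were added after seeing the data. Protein sequences, which had been planned, were not used here. Tests were checked on simulated data. Tables, sequences and plots used Python 3.11.15, pandas 2.3.3, numpy 2.4.6, Biopython 1.88 and matplotlib 3.10.9.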

Additional observations from a re-analysis of the deposited data

How the results depend on the processing

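Of the 16 calls on members 8 held in all 13 other settings (EXPB3, EXPA5, EXPA4, EXPA17, XTH15, XTH24, XTH19 and XTH30), 8 were lost in at least 1, and none of the 16 changed sign in any. Leaving out 1 library at a time gave 6 to 12 members higher and 3 to 7 lower, 2 to 4 expansins higher and 3 to 5 lower, 4 to 8 XTH genes higher and 0 to 2 lower, and 1021 to 2289 genes higher and 395 to 971 lower over all tested genes. No filter on low values gave 8 members higher, 2 of them expansins, with 1327 genes higher and 492 lower over all tested genes. Quantile normalization and median-ratio scaling each gave 8 members lower, 2 of them XTH genes, and a median of the members of -0.006 and -0.005. Over all tested genes, 1305 and 1333 were then higher and 1343 and 1236 lower. Removal of a length trend gave 2 XTH genes lower, with 1429 genes higher and 1142 lower over all tested genes. The cause of these moves was not tested. The replicate number does not pair the libraries by the labels: correlations of deviations of same-numbered libraries were 0.315, 0.061 and 0.105, and WT replicate 2 correlated best with hid1 replicate 3 (0.255). With the replicate block 22 members passed, the 16 and 6 more (EXPA11, XTH7, XTH9 at an adjusted p of 0.00329, XTH18, XTH22 and XTH32). Of the 22, 8 were lower, 3 of those XTH genes, and 7 root markers were higher. Over all tested genes 2384 were then higher and 1251 lower, in place of 1775 and 794. Members far from the threshold took the opposite sign: EXPA1 (-0.177 to 0.013 with a library left out), EXPA3 (-0.060 median-ratio, -0.052 length, -0.050 to 0.081 with a library left out), EXLA2 (-0.020 quantile), EXPB1 (-0.235 to 0.048 with a library left out), XTH5 (-0.016 quantile, -0.017 median-ratio, -0.025 length, -0.098 to 0.155 with a library left out) and XTH27 (-0.045 quantile and median-ratio, -0.028 length, -0.002 to 0.084 with a library left out). Depth limits the members below 1 RPKM, and 3 libraries per genotype limit small differences.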

Other observations

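Several XTH genes lie side by side on their chromosomes, and their values are given here side by side; differences between neighbours were not tested. On chromosome 4, XTH24 (14819192 to 14820595), XTH18 (14825757 to 14827211) and XTH19 (14828712 to 14830224) follow each other on the minus strand. XTH24 and XTH19 rose, and XTH18 between them was at 28.2, 17.8 and 18.5 RPKM in WT and at 30.3, 26.5 and 32.1 in hid1 (0.47, limma adjusted p = 0.0903; 0.67 and 0.00371 without WT replicate 1). Elsewhere on chromosome 4, XTH23 (13128394 to 13129927) and XTH14 (13130291 to 13131860) are neighbours, and both rose, XTH14 losing its call in 9 other settings. On chromosome 5, XTH12, XTH13, XTH25 and XTH22 lie within 23300321 to 23308680. XTH12 rose, with its call lost in 5 other settings. XTH13 was at 4.6, 1.12 and 1.52 RPKM in WT and at 5.49, 2.99 and 5.2 in hid1 (0.81, limma adjusted p = 0.130; 1.23 and 0.00215 without WT replicate 1). XTH25 had means of 0.657 and 0.663 RPKM. XTH22, the touch-induced gene TCH4, had means of 8.45 and 11.97 (0.46, limma adjusted p = 0.155). The tested genes of this cluster were all higher in hid1, but the libraries of XTH13 and XTH22 overlapped between genotypes. Sequence that XTH12, XTH13 or XTH14 share with other genes was not checked. Of the 42 tested members 24 were higher in hid1. These genes were chosen after their positions and values were seen.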
